A study of Pleurotus tuoliensis with 2 samples.

Results

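Hydrophobins are small proteins that filamentous fungi secrete. They carry a conserved pattern of cysteines joined in disulfide bonds, and they assemble at the border between water and air into an amphipathic film. Class I hydrophobins, the kind found in mushrooms, form a very insoluble layer that coats hyphae growing into the air and lines air channels in fruiting bodies. In *Schizophyllum commune*, SC3 coats aerial hyphae of vegetative mycelium, although the database entry calls it a fruiting body protein, whereas SC1 is made by the dikaryon at fruiting. *Pleurotus ostreatus*, the oyster mushroom, has separate sets of hydrophobins for vegetative mycelium and for fruiting bodies.

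The hydrophobin family in *Pleurotus tuoliensis* mycelia was followed here as 10 of the 17030 unigenes (assembled transcripts, 1 kept for each assembled gene) in the FPKM table. The annotation chose 9 of the members, those whose best Swiss-Prot match is Fruiting body protein SC1 (4 unigenes) or SC3 (5 unigenes). TRINITY_DN7746_c0_g2 was named singly. It has no Swiss-Prot match, and its match in the Nr protein database is a class I hydrophobin of *P. ostreatus*. TRINITY_DN5623_c0_g2 and TRINITY_DN657_c0_g1 carry the same Nr text, also without a Swiss-Prot match, but were left out. Their mean levels were 13.4 and 2.35 FPKM, beside 633 FPKM for TRINITY_DN7746_c0_g2. The rule states no expression value, but the members were chosen with results of these data known. FPKM scales the sequenced fragments of a unigene for transcript length and library size, so levels are per length and can be set side by side between unigenes.

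The study asked how mycelia change during physiological maturation, the phase that bottles pass through before fruiting can be induced. Mature mycelia of strain ACCC 50869 came from 3 bottles kept for 35 days at 17 °C in darkness, after the earlier growth phase that all bottles shared. Immature mycelia came from 3 other bottles at day 0 of that phase, when 37 days at 25 °C in darkness had let the hyphae cover the 820 g of substrate. Age, temperature and maturity changed together between the groups and cannot be told apart, and since every library is 1 bottle, the errors given below describe variation from culture to culture. The libraries hold a whole mycelium, so fewer hyphae of a kind and less RNA per hypha cannot be told apart either.

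FPKM over the whole table summed to between 1206304 and 1238506 in the 6 libraries. Across the 11985 unigenes of at least 500 bases, log2(FPKM + 1) correlated between mature bottles with r of 0.968 to 0.986 and between immature bottles with r of 0.956 to 0.979, a description across genes, which are not independent replicates. The table gives no fragment counts, so the depth behind a value is unknown. Among unigenes within 5% of a member's length, the smallest value above 0 in a library was at most 4.32 FPKM. The lowest value of a member was between 2.68 and 518 times the highest such smallest value for its length, with the narrowest margin for TRINITY_DN7702_c0_g1. That smallest value is no detection limit, as its highest was 0.23 FPKM near 853 bases and 4.32 FPKM near 4005 bases. The margins therefore do not give the precision of a value.

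Other annotation columns, which the rule did not use, were read for what the members share. They are matches of the same sequences, and the paper based its gene ontology classes on the Nr annotations. Shared terms are therefore a description and not a separate check of the family. In all, 8 of the 10 carry the gene ontology terms for a structural constituent of the cell wall and for the fungal-type cell wall. The first of these terms is carried by only 1 other unigene of the table, an acyl-CoA dehydrogenase match, TRINITY_DN7848_c0_g1. Of the orthologous groups in eggNOG, 1 holds 7 members and a second 1 holds 7, with 8 members in either, and the only non-member in them is TRINITY_DN6215_c0_g1. For TRINITY_DN8573_c0_g1 and TRINITY_DN7777_c0_g1 no gene ontology term is listed. DN7777_c0_g1 also lies outside both eggNOG groups and matches a hypothetical protein in Nr, so its place in the family rests on the Swiss-Prot match. TRINITY_DN7746_c0_g2 has no eggNOG group listed and no Swiss-Prot match, so its place rests on its Nr match and gene ontology terms. No member has a KEGG number.

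Length sets a limit on what a member's value stands for. A hydrophobin needs only a short coding sequence, yet 5 members are longer than 2000 bases, with DN7777_c0_g1 at 4005 bases and DN8573_c0_g1 at 3411 bases. TRINITY_DN6631_c0_g1, of 2257 bases, carries terms for a copper chaperone and copper transport beside the wall terms, and these are not functions of a hydrophobin. Whether any of these unigenes joins neighbouring transcripts was not tested. TRINITY_DN7702_c0_g1 and TRINITY_DN7702_c0_g2 come from 1 assembly cluster, so fragments could be divided between them.

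The family was expressed at both stages, with single values between 2.62 and 814.97 FPKM, and its order of levels changed little between them. TRINITY_DN7746_c0_g2 led by a wide margin. It had 734.04, 510.81 and 522.94 FPKM in mature bottles 1, 2 and 3, against 465.95, 814.97 and 747.29 FPKM in immature bottles 1, 2 and 3. The groups overlap, with the lowest value of all 6 libraries in immature bottle 1 and the highest in immature bottle 2. By mean level it ranked 237 among all 17030 unigenes, while the 2 lowest members, TRINITY_DN7702_c0_g1 and TRINITY_DN5369_c0_g1, ranked 13161 and 13175. From the top down, mature mycelia had DN7746_c0_g2, DN8573_c0_g1, DN7702_c0_g2, DN4028_c0_g1 and DN7777_c0_g1, each with values apart from those of the next. Below them DN9285_c4_g1 and DN6631_c0_g1 overlapped, and so did DN5369_c0_g1, DN7702_c0_g1 and DN2989_c0_g2 at the bottom. Immature mycelia had the same leading 5 in the same order, but there DN6631_c0_g1 overlapped with DN7777_c0_g1 and stood apart from DN9285_c4_g1. DN9285_c4_g1 and DN2989_c0_g2 overlapped in immature mycelia, as did DN7702_c0_g1 and DN5369_c0_g1 at the bottom.

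**Figure D1:**
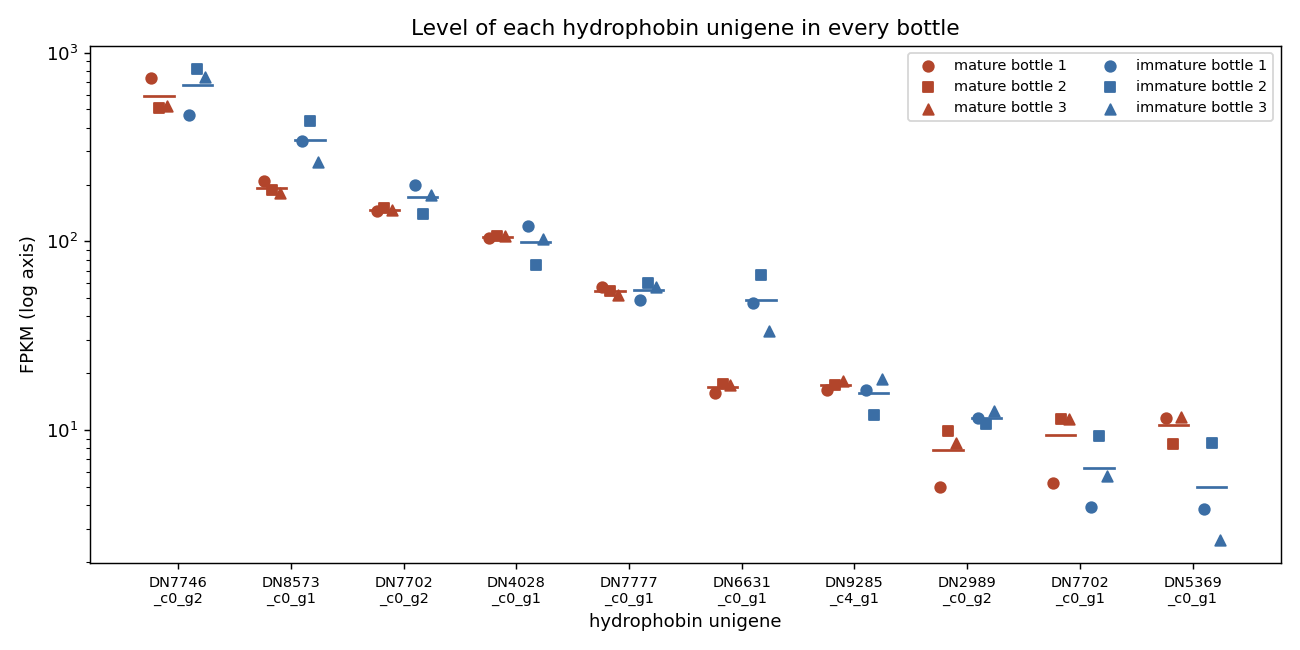
FPKM on a log axis for the 10 hydrophobin unigenes, ordered by mean level; red points are the 3 mature bottles, blue points the 3 immature bottles, symbols give the bottle number and lines the group mean. DN7746_c0_g2 leads in every bottle, and DN6631_c0_g1, DN8573_c0_g1 and, narrowly, DN2989_c0_g2 show blue points wholly above red ones.

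Summed over the 10 unigenes, the family held less FPKM on average in mature mycelia, but the groups overlapped. The sums were 1304, 1075 and 1074 FPKM in mature bottles 1, 2 and 3, and 1256, 1629 and 1418 FPKM in immature bottles 1, 2 and 3. Mature bottle 1 lay above immature bottle 1, while the other 2 mature bottles lay below every immature bottle. The means were 1151 ± 132 FPKM in mature mycelia and 1435 ± 187 FPKM in immature mycelia (SD, n = 3 each), a log2 ratio of the means of -0.32. As a share of all FPKM in the table this was 0.0933% ± 0.011 in mature and 0.118% ± 0.015 in immature mycelia (SD, n = 3 each). The 9 members with a Swiss-Prot match, without the leading DN7746_c0_g2, summed to 570, 564 and 551 FPKM in the mature bottles and to 790, 814 and 671 FPKM in the immature bottles. These sums did not overlap, and the mature mean was 74.0% of the immature one. The mean difference of the 10-member sum was 284 FPKM lower in mature mycelia, of which DN8573_c0_g1 gave 153, DN7746_c0_g2 gave 86.8, DN6631_c0_g1 gave 32.0 and DN7702_c0_g2 gave 24.2 FPKM. Since the members were chosen with results of these data known, no p was computed for these sums.

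Roughly equal parts of the family sum came from DN7746_c0_g2 and from all the rest. Its share was 56.3%, 47.5% and 48.7% in mature bottles 1, 2 and 3 and 37.1%, 50% and 52.7% in immature bottles 1, 2 and 3, so that the groups overlapped. Counted as FPKM times length, which follows the number of fragments and not of transcripts, its share was 41.2% ± 4.30 in mature and 36.0% ± 7.40 in immature mycelia (SD, n = 3 each). The 4 leading members together made 89.8% ± 1.49 of the sum in mature mycelia and 90.0% ± 0.717 in immature mycelia (SD, n = 3 each). The 6 lower members made 10.2% ± 1.49 in mature and 9.97% ± 0.717 in immature mycelia (SD, n = 3 each). Among them, the shares of DN6631_c0_g1, DN5369_c0_g1 and DN7777_c0_g1 did not overlap between the groups. DN6631_c0_g1 made 1.48% ± 0.240 of the family in mature mycelia and 3.39% ± 0.910 in immature mycelia, whereas DN5369_c0_g1 made 0.922% ± 0.159 in mature and 0.338% ± 0.173 in immature mycelia (SD, n = 3 each). DN7777_c0_g1 made 4.75% ± 0.355 in mature and 3.88% ± 0.159 in immature mycelia (SD, n = 3 each), although its FPKM hardly differed (log2 ratio -0.02). A share also depends on the family sum, and the FPKM of DN5369_c0_g1 itself overlapped between the groups. Its immature bottle 2, at 8.56 FPKM, was the bottle with the largest family sum, 1629 FPKM.

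**Figure D2:**
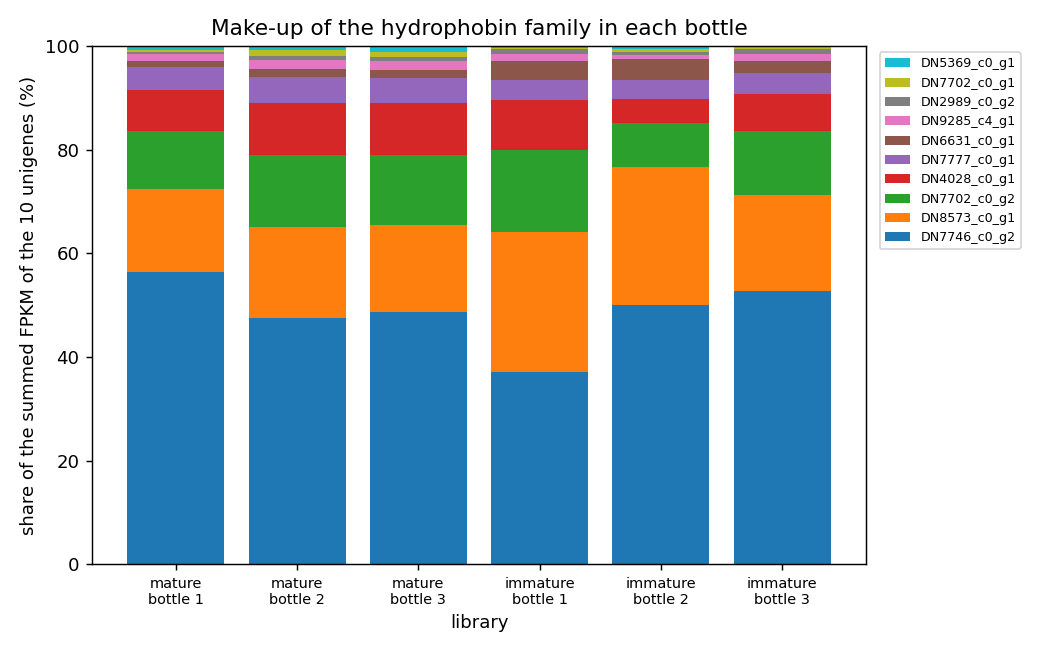
Share of each hydrophobin unigene in the summed FPKM of the 10, in percent, for 3 mature bottles (left) and 3 immature bottles (right). The lowest segment, DN7746_c0_g2, runs between 37.1% and 56.3%, and the segment above it, DN8573_c0_g1, between 16.1% and 17.5% in mature and between 18.5% and 27.0% in immature bottles.

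Mature and immature mycelia were compared with limma on log2(FPKM + 1) over the 16496 unigenes whose mean FPKM was above 1. All 10 members passed this filter. The thresholds in the study's methods, an unadjusted p of at most 0.05 and a log2 ratio of at least 1 in either direction, were applied to that fit. They were passed by 1 member that was higher in mature mycelia, DN5369_c0_g1, beside 1.18% of all unigenes tested, and by 1 that was lower, DN6631_c0_g1, beside 1.82% of all unigenes tested. Over all unigenes tested, 195 were past these thresholds in the higher and 301 in the lower direction, and with median-of-ratios scaling 238 and 252. With p adjusted over all 16496 unigenes (Benjamini-Hochberg), 0 members were under 0.05 in limma, where 0.0667% of all unigenes were, and 3 members had an unadjusted p of at most 0.05, beside 15.4% of all unigenes tested. The median log2 ratio of the 10 was -0.10, beside -0.07 over all unigenes tested.

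Values of the 3 mature bottles lay wholly below those of the 3 immature bottles for 3 members, DN8573_c0_g1, DN6631_c0_g1 and DN2989_c0_g2, beside 14.2% of all unigenes tested. None (0) lay wholly above, beside 8.69% of all unigenes tested. For any single unigene, 3 bottles against 3 allow an exact permutation p no smaller than 0.1, two-sided.

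**Figure D3:**
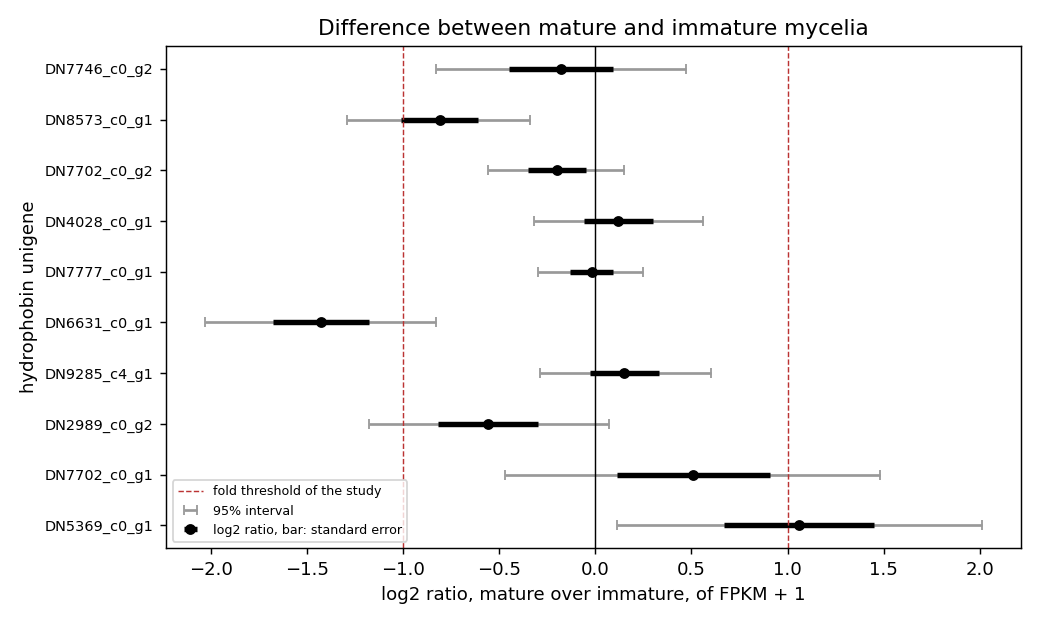
Log2 ratio of mature over immature mycelia on the scale of FPKM + 1 for each hydrophobin unigene, with the standard error (thick bar) and 95% interval (thin bar) from limma; dashed lines mark a log2 ratio of 1 in each direction. Intervals lie wholly below 0 for DN8573_c0_g1 and DN6631_c0_g1, wholly above 0 for DN5369_c0_g1, and span 0 for the other 7.

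Among the SC3-type members, the largest difference was in TRINITY_DN6631_c0_g1. Its Nr match is vegetative mycelium hydrophobin 1 of *P. ostreatus*, a hydrophobin named for the stage at which that fungus makes it. It had 15.71, 17.55 and 17.27 FPKM in mature bottles 1, 2 and 3, against 47.03, 66.2 and 33.36 FPKM in immature bottles 1, 2 and 3. Every mature bottle lay far below the lowest immature one, number 3, and the immature bottles differed more among themselves than the mature ones did. The mature mean was 34.5% of the immature mean, and the log2 ratio was -1.43 ± 0.25 (SE), with a 95% interval of -2.03 to -0.83. In limma p was 0.00111 and adjusted p 0.120. It passed the study's thresholds in all 17 alternative fits and fell under an adjusted p of 0.05 in 1 of them, the fit restricted to unigenes of at least 500 bases (adjusted p = 0.0484 in limma). Over the alternatives its adjusted p ran between 0.0484 and 0.39.

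TRINITY_DN5369_c0_g1, the SC3 unigene that the study singled out, went the other way. The paper reported it as upregulated in mature mycelia, and by RT-qPCR it found a pattern similar to that of RNA-seq. The RT-qPCR was not re-examined here. In the FPKM table, DN5369_c0_g1 had 11.52, 8.45 and 11.77 FPKM in mature bottles 1, 2 and 3, against 3.83, 8.56 and 2.62 FPKM in immature bottles 1, 2 and 3. Immature bottle 2 stood at the level of the mature bottles, just above mature bottle 2, so the groups overlapped at that one bottle. The means were 10.6 ± 1.85 FPKM in mature and 5.0 ± 3.14 FPKM in immature mycelia (SD, n = 3 each), and the log2 ratio was 1.06 ± 0.39 (SE), with a 95% interval of 0.11 to 2.01. In limma p was 0.0345 and adjusted p 0.286. It no longer passed the study's thresholds when mature bottle 1 was left out (log2 ratio 1.0), nor without mature bottle 2 (1.2), mature bottle 3 (0.98), immature bottle 1 (0.96) or immature bottle 3 (0.76). In these 5 limma fits p ran between 0.0526 and 0.103. Without immature bottle 2 the log2 ratio was 1.46, and p in limma was 0.00311. A pseudocount of 5 in place of 1 gave a log2 ratio of 0.68, below the fold threshold. Of the 17 alternative fits, DN5369_c0_g1 passed the study's thresholds in 10, and its log2 ratio was between 0.68 and 1.46 in all of them.

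The other 3 SC3-type members did not pass the study's thresholds. TRINITY_DN7702_c0_g2, matched in Nr to a hydrophobin of *Fomitiporia mediterranea*, had 144.32, 150.97 and 146.24 FPKM in mature bottles and 198.95, 139.21 and 175.88 FPKM in immature bottles. Its log2 ratio was -0.20, with a 95% interval of -0.56 to 0.15, and it was -0.09 without immature bottle 1 and -0.34 without immature bottle 2. Mature bottles were tightly grouped here, and immature bottle 2 lay below all of them while the other 2 immature bottles lay above them. TRINITY_DN7702_c0_g1, from the same assembly cluster, had 5.24, 11.46 and 11.43 FPKM in mature and 3.89, 9.29 and 5.69 FPKM in immature bottles. Bottle 1 was the lowest of its group at both stages. Its log2 ratio of 0.51 had a 95% interval of -0.47 to 1.48, which holds both 0 and the study's fold threshold. It was 0.84 without mature bottle 1, 0.79 without immature bottle 2, 0.34 without mature bottle 2 or 3, and 0.25 without immature bottle 1. TRINITY_DN9285_c4_g1, matched to POH2, a hydrophobin described in vegetative mycelium of *P. ostreatus*, had 16.24, 17.36 and 18.1 FPKM in mature and 16.36, 11.98 and 18.55 FPKM in immature bottles. The immature values enclosed the mature ones, and the log2 ratio was 0.15, with a 95% interval of -0.29 to 0.60. It was -0.02 without immature bottle 2 and 0.28 without immature bottle 3.

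Among the SC1-type members, TRINITY_DN8573_c0_g1 stood lower in mature mycelia and gave the largest part of the difference in the family sum. It had 210.05, 187.85 and 179.43 FPKM in mature bottles 1, 2 and 3, against 339.06, 433.19 and 262.9 FPKM in immature bottles 1, 2 and 3. All mature bottles lay below the lowest immature bottle, number 3. The mature mean was 55.8% of the immature one, and the log2 ratio was -0.81 ± 0.20 (SE), with a 95% interval of -1.29 to -0.34, which reaches past the study's fold threshold although the estimate does not. In limma p was 0.00584 and adjusted p 0.183, and over the 17 alternatives the log2 ratio stayed between -0.99 and -0.63.

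TRINITY_DN2989_c0_g2, the shortest member at 594 bases and matched to hydrophobin 15 of *P. ostreatus*, had 5.01, 9.89 and 8.57 FPKM in mature and 11.51, 10.81 and 12.54 FPKM in immature bottles. No mature value reached an immature one, but mature bottle 2 came within 1 FPKM of immature bottle 2. The log2 ratio was -0.56, with a 95% interval of -1.18 to 0.07. In limma p was 0.0713 and adjusted p 0.359. The log2 ratio was -0.30 without mature bottle 1 and -0.73 without mature bottle 2, where p in limma was 0.042. It was the only member whose spread was clearly wider in mature mycelia, with a coefficient of variation of 32.3% there and 7.49% in immature mycelia.

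The remaining 2 SC1-type members differed little. TRINITY_DN4028_c0_g1 had 104.57, 106.42 and 106.37 FPKM in mature bottles, against 120.54, 74.81 and 102.37 FPKM in immature bottles. Its log2 ratio was 0.12, with a 95% interval of -0.32 to 0.56, while it was -0.07 without immature bottle 2 and 0.27 without immature bottle 1. The mature bottles agree within a coefficient of variation of 0.996%, the smallest of any member. TRINITY_DN7777_c0_g1 had 56.95, 54.53 and 51.68 FPKM in mature and 49.15, 60.39 and 56.99 FPKM in immature bottles. With a log2 ratio of -0.02 and a 95% interval of -0.30 to 0.25, it had the narrowest interval in the family, and the sign of its ratio turned with scaling, to 0.04 with median-of-ratios size factors and 0.02 with quantile normalization, as it did without immature bottle 2 (0.04) and without mature bottle 3 (0.01).

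For DN7746_c0_g2, the leading member, the log2 ratio was -0.18, with a 95% interval of -0.83 to 0.47. Leaving out single bottles moved it between -0.43, without immature bottle 1, and -0.02, without immature bottle 2. It was -0.35 without mature bottle 1, -0.08 without mature bottle 2 or immature bottle 3, and -0.10 without mature bottle 3. In limma p was 0.528 and adjusted p 0.774. Its residual SD was 0.37 on the log2 scale, beside a median of 0.25 over all unigenes tested.

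The immature bottles spread more than the mature ones in this family. The SD of log2(FPKM + 1) was wider in immature mycelia for 8 of the 10 members, with a median SD of 0.10 in mature and 0.35 in immature bottles. Over all unigenes tested it was wider in immature mycelia for 53.4%, with medians of 0.21 in mature and 0.23 in immature bottles. Among the 10 members, immature bottle 2 was the highest of its group for 6 and the lowest for the other 4. The like share over all unigenes was not computed, so whether this is particular to the family is unknown. In immature bottle 2, DN5369_c0_g1 lay 0.80 above its group mean, DN7702_c0_g1 0.56, DN6631_c0_g1 0.48 and DN8573_c0_g1 0.36 on the log2 scale. DN4028_c0_g1, DN9285_c4_g1 and DN7702_c0_g2 lay on the other side, at -0.38, -0.34 and -0.28. The part of this bottle in each difference is given by the values without it, and DN6631_c0_g1 then had a log2 ratio of -1.19 and DN8573_c0_g1 one of -0.63.

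**Figure D4:**
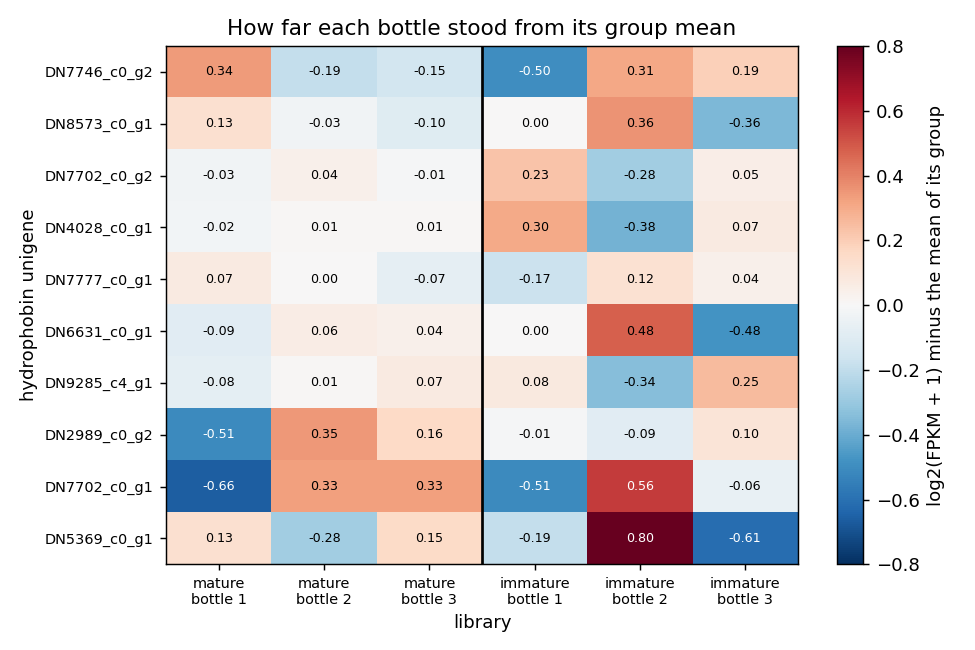
Log2(FPKM + 1) of each hydrophobin unigene in each bottle minus the mean of its own group, for mature bottles (left of the line) and immature bottles (right of it). Immature bottle 2 ranges between -0.38 for DN4028_c0_g1 and 0.80 for DN5369_c0_g1, while most mature cells are near 0.

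Likeness between members was measured as the root mean square difference of log2(FPKM + 1), each centred on its own mean over the 6 libraries. Of the 45 pairs, the 3 closest joined DN4028_c0_g1 with DN9285_c4_g1 (0.12), DN7702_c0_g2 with DN4028_c0_g1 (0.17) and DN7702_c0_g2 with DN9285_c4_g1 (0.21). These 3 unigenes differ in level, with means over the 6 libraries of 103, 16.4 and 159 FPKM, include both SC1 and SC3 matches, and share the low value in immature bottle 2. The farthest pair was DN6631_c0_g1 with DN5369_c0_g1, at 1.27. The pair from 1 assembly cluster, DN7702_c0_g2 and DN7702_c0_g1, was at 0.66. These are descriptions over 6 libraries that share the same bottles.

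By the same measure, the unigenes most like DN7746_c0_g2 among 10720 of sufficient level and length followed it within 0.062 to 0.078, in libraries where DN7746_c0_g2 itself varied by 0.31 around its mean. The closest was TRINITY_DN8857_c0_g1, matched to the F-box protein grrA of a ubiquitin ligase, followed by TRINITY_DN4394_c0_g2, matched to a mitochondrial homocitrate dehydratase of lysine synthesis. The next 3, TRINITY_DN7422_c0_g2, TRINITY_DN8673_c0_g1 and TRINITY_DN4403_c0_g1, match hypothetical proteins. All 5 were high in mature bottle 1 and low in immature bottle 1, as DN7746_c0_g2 was, and in all 5 the groups overlapped. Since they were picked for likeness over these same libraries, this follows from the choice. The unigenes most like DN5369_c0_g1 were less close, at 0.247 to 0.327, where DN5369_c0_g1 varied by 0.69. They were TRINITY_DN8254_c0_g2 and TRINITY_DN8549_c0_g4, both without a named protein, TRINITY_DN7884_c0_g2 (inosine triphosphate pyrophosphatase, which clears damaged nucleotides), TRINITY_DN6635_c0_g2 (DNA damage-binding protein CMR1) and TRINITY_DN5011_c0_g1 (carbonic anhydrase 2, which interconverts carbon dioxide and bicarbonate). TRINITY_DN7884_c0_g2 had 29.3, 26.56 and 29.72 FPKM in mature bottles and 14.81, 25.19 and 14.36 FPKM in immature bottles. Like DN5369_c0_g1, for likeness to which it was picked, it stood high in immature bottle 2, but there it remained below all 3 mature bottles.

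The table holds 3 further unigenes with the word hydrophobin in an annotation, outside the 10. Of these, TRINITY_DN5623_c0_g2 and TRINITY_DN657_c0_g1 have the same Nr text as the member DN7746_c0_g2. TRINITY_DN6215_c0_g1, matched to a hydrophobin of *Leucoagaricus*, had 26.97, 26.41 and 31.97 FPKM in mature and 26.08, 32.28 and 31.83 FPKM in immature bottles. TRINITY_DN5623_c0_g2, of 400 bases, had 19.79, 10.68 and 8.09 FPKM in mature and 14.35, 10.68 and 16.88 FPKM in immature bottles. TRINITY_DN657_c0_g1 had 1.28, 2.47 and 2.72 FPKM in mature and 3.25, 1.44 and 2.93 FPKM in immature bottles. All 3 overlapped between the groups, with log2 ratios of -0.08, -0.18 and -0.16. With them the family sum was 1194 ± 136 FPKM in mature and 1481 ± 187 FPKM in immature mycelia (SD, n = 3 each).

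Genes whose products work beside hydrophobins were followed in lists of words in the annotation. Of 13 unigenes for fruiting and secreted surface proteins, 0 passed the study's thresholds, beside 1.18% higher and 1.82% lower of all tested. Of the 13, 1 reached p of at most 0.05 (limma, unadjusted), beside 15.4% of all tested, and their median log2 ratio was 0.00. The unigene with the lowest p, TRINITY_DN2262_c0_g1, matches the lectin of *Agaricus bisporus*, a sugar-binding protein of that mushroom. It had 39.37, 36.55 and 35.65 FPKM in mature and 26.39, 24.54 and 22.39 FPKM in immature bottles, without overlap, and a log2 ratio of 0.59 (adjusted p = 0.134 in limma). A plant-expansin-like unigene, TRINITY_DN2800_c0_g1, had 32.32, 50.73 and 49.83 FPKM in mature and 161.41, 35.14 and 114.56 FPKM in immature bottles. Its immature bottle 2 was the low one, and the groups overlapped. The third lowest p was that of TRINITY_DN5689_c0_g1, an L-type lectin-like unigene with a log2 ratio of 0.27, and the most abundant of the list was another plant-expansin-like unigene, TRINITY_DN6189_c0_g1, at 1670 ± 196 FPKM in mature and 1643 ± 292 FPKM in immature mycelia (SD, n = 3 each).

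A list of 43 unigenes covers the synthesis of chitin and glucan, the polymers of the hyphal wall that hydrophobin films cover. Of these, 0 passed the study's thresholds, beside 1.18% higher and 1.82% lower of all tested, and 4 reached p of at most 0.05 (limma, unadjusted), beside 15.4% of all tested. Their median log2 ratio was -0.09. The lowest p was that of TRINITY_DN1530_c0_g2, a chitin synthase 6 match, with 127 ± 7.53 FPKM in mature and 167 ± 3.71 FPKM in immature mycelia (SD, n = 3 each) and a log2 ratio of -0.39. Next were TRINITY_DN5106_c0_g2 and TRINITY_DN5106_c0_g1 from 1 assembly cluster, matched to the glucan synthesis proteins SKN1 and KRE6, with log2 ratios of 0.56 and 0.41. In these 3, picked for their low p, the groups did not overlap, and their adjusted p in limma was between 0.169 and 0.227. Of the 43, mature values lay wholly above for 2 and wholly below for 4, beside 8.69% and 14.2% of all unigenes tested. The most abundant, the chitin synthase 2 match TRINITY_DN7102_c1_g1, had a log2 ratio of -0.09.

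Secreted proteins with disulfide bonds pass through the endoplasmic reticulum. Of 20 unigenes for secretion and disulfide formation, 0 passed the study's thresholds, beside 1.18% higher and 1.82% lower of all tested. Of the 20, 4 reached p of at most 0.05 (limma, unadjusted), beside 15.4% of all tested, and their median log2 ratio was 0.02. A pair of disulfide isomerases, enzymes that join cysteines, had log2 ratios of opposite sign. TRINITY_DN7470_c1_g1 had 227.97, 204.59 and 206.59 FPKM in mature and 169.76, 110.24 and 155.74 FPKM in immature bottles, a log2 ratio of 0.57 (adjusted p = 0.234 in limma). TRINITY_DN8509_c0_g1, a tigA match, had 194.01, 263.2 and 235.1 FPKM in mature and 274.81, 387.71 and 323.41 FPKM in immature bottles, a log2 ratio of -0.51 (adjusted p = 0.271 in limma). Both, picked for their low p, were without overlap between the groups, and immature bottle 2 was the lowest bottle of the first and the highest of the second. Of the 20, mature values lay wholly above for 3 and wholly below for 4, beside 8.69% and 14.2% of all unigenes tested. The signal peptidase subunit SPC3 match, TRINITY_DN8404_c0_g1, had a log2 ratio of -0.26, and the most abundant of the list, the Sec61 subunit beta match TRINITY_DN4824_c0_g1, one of 0.01.

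In *S. commune* the mating-type genes and a regulator of G protein signalling act on hydrophobin genes, and light and homeobox regulators act on fruiting. A list of 20 unigenes was drawn by words for mating, G protein regulation, light and homeobox proteins. Of these, 0 passed the study's thresholds as higher (1.18% of all tested) and 1 as lower in mature mycelia (1.82% of all tested). In the list, 5 reached p of at most 0.05 (limma, unadjusted), beside 15.4% of all tested, and the median log2 ratio was -0.18. The unigene past the thresholds, TRINITY_DN4426_c0_g1, is a homeobox match. It had 306.14, 170.75 and 167.2 FPKM in mature bottles, against 518.38, 468.82 and 377.44 FPKM in immature bottles. Its groups did not overlap, its log2 ratio was -1.13 ± 0.27 (SE), and its adjusted p in limma was 0.181. TRINITY_DN9668_c0_g1, a pheromone receptor match, had 2.1 ± 0.432 FPKM in mature and 4.98 ± 1.66 FPKM in immature mycelia (SD, n = 3 each). The carboxypeptidase KEX1 match TRINITY_DN5093_c0_g2, which the word pheromone brought into the list, had a log2 ratio of -0.35. That word also brought in further KEX1 matches and matches to a pheromone-regulated membrane protein. The word sst2 brought in an AMSH-like protease match, TRINITY_DN5058_c0_g1. The counts and the median of the list include all of these. The most abundant unigene was another pheromone receptor match, TRINITY_DN4607_c0_g1, of only 382 bases, with 1014 ± 85.5 FPKM in mature and 1557 ± 622 FPKM in immature mycelia (SD, n = 3 each) and overlapping groups.

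The control list held 15 unigenes for actin, tubulin, elongation factor 1-alpha and glyceraldehyde-3-phosphate dehydrogenase. It had 0 past the study's thresholds, beside 1.18% higher and 1.82% lower of all tested. It had 2 with an unadjusted p of at most 0.05 in limma (15.4% of all tested), and a median log2 ratio of -0.08. Log2 ratios in it ran between -0.33 and 0.61. The actin match TRINITY_DN6531_c0_g1 had a log2 ratio of 0.29, the dehydrogenase match TRINITY_DN9215_c1_g1 one of 0.41, and the gamma tubulin match TRINITY_DN6563_c0_g1 one of -0.23. The most abundant, the elongation factor 1-alpha match TRINITY_DN5639_c0_g1, had 1211 ± 172 FPKM in mature and 1048 ± 271 FPKM in immature mycelia (SD, n = 3 each). The log2 ratios of DN6631_c0_g1, DN8573_c0_g1, DN2989_c0_g2 and DN5369_c0_g1 lay outside the range of this list, and those of the other members within it. The share of all unigenes tested outside that range was not computed, so no weight is put on this. The list was also more abundant, with a median level of 162 FPKM beside 43.9 FPKM for the members.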

How the data were processed

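RNA of 3 mature and 3 immature bottles was sequenced by the authors, who trimmed the reads with cutadapt, assembled them together with Trinity, clustered contigs with TGICL, kept the longest isoform of each subcomponent and estimated abundance with RSEM. The deposited values are FPKM with 2 decimals per unigene, with the unigene's length and its database matches. Whether RSEM used the strand of the library is not given in the sources used here. Fragments that fit several hydrophobin unigenes may have been divided among them.

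Mature was compared with immature on log2(FPKM + 1) with limma 3.58.1 in R 4.3.3 (eBayes with trend, two-sided, no covariates, mean FPKM above 1) and p was adjusted by Benjamini-Hochberg over 16496 unigenes. The study's count test could not be used on FPKM, so only its thresholds were. Log2 ratios on this scale understate changes of low unigenes. The fit was tested on simulated data. Sums and shares were computed in Python 3.11.15, and matplotlib 3.10.9 made the plots.

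Named unigenes were the 10 members, every other unigene annotated as hydrophobin, the 3 of lowest p and the most abundant 1 of each list, and the 5 most like DN7746_c0_g2 and DN5369_c0_g1 (mean FPKM of at least 5, at least 500 bases). DN7848_c0_g1, which shares the term for a structural constituent of the cell wall, fell outside this rule and was chosen after its values were seen. The members and the lists were chosen with earlier results of these data known. Each result was recomputed with another pseudocount, filter, scaling or variance prior, with a minimum length, with a replicate block and without each bottle; the family sum with 3 more unigenes or without its leading member was added after seeing the data.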

Additional observations from a re-analysis of the deposited data

How the results depend on the processing

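Of the 2 members past the study's thresholds, 1 remained with a pseudocount of 5 and 1 with a replicate block; leaving out single bottles gave between 1 and 2. DN6631_c0_g1 was past them in all of these fits, and DN5369_c0_g1 was the one lost. The count past an adjusted p of 0.05 in limma was 1 in place of 0 among unigenes of at least 500 bases, where fewer unigenes were tested and the spread was estimated without the short ones, and 0 without each bottle in turn. Mature and immature samples came from different bottles, so the bottle numbers were not taken as pairs. Same-numbered bottles deviated together with r of -0.24, -0.20 and 0.02, and unlike-numbered ones with r between -0.20 and 0.29. These values cannot exclude a shared handling of same-numbered samples. Under the replicate block DN5369_c0_g1 had a limma p of 0.0731 and DN6631_c0_g1 one of 0.00327. The sign turned for DN7777_c0_g1 with median-of-ratios size factors (0.04), quantile normalization (0.02), without immature bottle 2 (0.04) and without mature bottle 3 (0.01), and without immature bottle 2 also for DN4028_c0_g1 (-0.07) and DN9285_c4_g1 (-0.02). Over the fits without single bottles the log2 ratio ran between -0.11 and 0.04 for DN7777_c0_g1, -0.07 and 0.27 for DN4028_c0_g1, and -0.02 and 0.28 for DN9285_c4_g1. The mean share of DN7746_c0_g2 over the 6 libraries was 48.7%, and 38.6% as FPKM times length, where long members weigh more. Leaving out single bottles gave 47.2% to 51.0%. The log2 ratio of the family sum stayed between -0.43 and -0.22 under every alternative tried. Over all unigenes, calls past the study's thresholds were 134 higher and 156 lower with a pseudocount of 5, and 247 higher and 228 lower after quantile normalization. An adjusted p under 0.05 was reached by 11 unigenes in the fit reported, by 101 of those of at least 500 bases, by 0 under the block and by 0 to 5 without single bottles. With 3 bottles a group, the 95% interval of a member's log2 ratio was narrowest for DN7777_c0_g1 (-0.30 to 0.25) and widest for DN7702_c0_g1 (-0.47 to 1.48).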
